A study of Mus musculus with 15 samples.

Results

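The miRNAs of mouse embryos were compared with those of the central nervous system, in the abundance of each mature miRNA and in the share of each hairpin's reads that came from its 5p arm. All libraries that GEO titles name as embryo, brain or spinal cord entered, which were 5 of the 15 libraries of the series. The embryo group held 1 library each of an 11-day, a 15-day and a 17-day embryo, and the other group 1 library of brain and 1 of spinal cord. The RNA came from a commercial mouse tissue panel, and the libraries were made with AQ-seq, a small RNA protocol with randomized adapters that is meant to lower ligation bias. Strain, sex, genotype and treatment, the age of the brain and spinal cord donors and the number of animals behind each RNA are not given in the labels, which also do not say whether the embryos were whole. For the 17-day embryo the title gives 17 days and the source field 15 days, and the title was used. Because each stage or tissue had 1 library, the spread within a group is that between stages or between both neural tissues, which may be in part technical.

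A miRNA hairpin is cut by Drosha and Dicer into a short duplex, and 1 or both of its strands, named 5p and 3p after the arm they lie on, enter an Argonaute protein and lower the output of mRNAs that pair with the seed near the strand's start. In development, some miRNAs mark dividing or fetal cells, among them those of the miR-17-92 cluster and those made from the imprinted genes H19 and Igf2. Others accumulate as neurons and glia mature, such as miR-124, miR-128 and the miR-29 and let-7 families.

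The mature sequences below are those of the miRNAs on which the comparison of abundance turns, 5′ to 3′, with the seed (bases 2 to 8) in capitals, from RefSeq on GRCm38.p6. The first set was higher in embryos. miR-483-3p lies in an intron of Igf2 (chr7:142654932-142654952, minus strand) and miR-675-3p at chr7:142577078-142577099, minus strand, in the same imprinted domain. miR-503-5p and miR-322-5p are neighbours on chromosome X, with the seeds AGCAGCG and AGCAGCA. miR-17-5p and miR-20a-5p share a seed, and miR-18a-5p and miR-19b-3p come from the same cluster with other seeds.
miR-483-3p: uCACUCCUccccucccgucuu
miR-675-3p: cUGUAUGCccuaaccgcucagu
miR-503-5p: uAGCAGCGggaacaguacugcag
miR-322-5p: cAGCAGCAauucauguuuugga
miR-17-5p: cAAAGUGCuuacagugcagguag
miR-20a-5p: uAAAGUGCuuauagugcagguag
miR-18a-5p: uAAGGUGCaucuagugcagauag
miR-19b-3p: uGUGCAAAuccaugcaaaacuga
miR-199a-3p: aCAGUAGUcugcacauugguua
miR-214-3p: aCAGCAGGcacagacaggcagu
The second set was lower in embryos, apart from let-7i-5p, which is shown because it shares the let-7 seed and did not pass the test. The members of the miR-29 family share 1 seed, those of the let-7 family another, and miR-132-3p and miR-212-3p a further one.
miR-29a-3p: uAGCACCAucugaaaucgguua
miR-29b-3p: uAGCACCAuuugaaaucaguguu
miR-29c-3p: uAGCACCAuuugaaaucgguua
let-7b-5p: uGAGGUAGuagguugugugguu
let-7c-5p: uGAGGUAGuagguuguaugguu
let-7a-5p: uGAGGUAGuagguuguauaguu
let-7i-5p: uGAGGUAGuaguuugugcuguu
miR-132-3p: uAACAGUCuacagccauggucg
miR-212-3p: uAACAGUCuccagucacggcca
miR-129-2-3p: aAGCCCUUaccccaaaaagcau
miR-338-3p: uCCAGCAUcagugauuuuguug
miR-128-3p: uCACAGUGaaccggucucuuu

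A further 4 hairpins are shown because they are among those whose arm usage differed most between the groups, with the mature 5p and 3p strands in capitals. Mir376b (chr12:109723458-109723539, plus strand), Mir154 (chr12:109738433-109738498, plus strand, in an intron of Mirg) and Mir431 (chr12:109590447-109590537, plus strand, opposite an exon of Rtl1) belong to the imprinted Dlk1-Dio3 domain, and Mir296 lies at chr2:174267047-174267125, minus strand.
Mir376b: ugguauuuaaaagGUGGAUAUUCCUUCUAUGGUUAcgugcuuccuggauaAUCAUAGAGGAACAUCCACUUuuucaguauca
Mir154: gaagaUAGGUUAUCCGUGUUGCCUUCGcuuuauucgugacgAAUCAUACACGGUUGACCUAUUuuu
Mir431: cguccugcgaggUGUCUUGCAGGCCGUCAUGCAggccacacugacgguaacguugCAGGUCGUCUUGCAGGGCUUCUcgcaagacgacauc
Mir296: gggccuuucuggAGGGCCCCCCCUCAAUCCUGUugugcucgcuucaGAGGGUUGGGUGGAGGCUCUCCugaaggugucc

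The libraries held 1505072, 2135464 and 2625149 reads in the 11-, 15- and 17-day embryos, against 3161463 in brain and 2078039 in spinal cord. A count of 3 reads stood for at most 1.99 CPM before the scaling named next, so levels of a few CPM rest on few reads. CPM are reads of a name scaled to a common library total, here with TMM, a factor per library that assumes that most names do not change. Since 51.7% of names passed the test below, this assumption is uncertain here. Across the 690 names tested, log2(CPM + 1) of any embryo with any other embryo had a Pearson r of 0.91 to 0.984, brain with spinal cord 0.944, and embryos with neural libraries 0.636 to 0.7145, as a description of libraries that share the same names and protocol.

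Under TMM scaling, embryos and the central nervous system differed in about as many miRNAs in each direction. Of 690 mature names tested with edgeR's quasi-likelihood test, 357 (51.7%) differed, 175 (25.4%) being higher in embryos and 182 (26.4%) lower, at an adjusted p under 0.05, and the median log2 fold change of embryos over brain and spinal cord was 0.33. Counts of list members given below are to be read beside the 25.4% higher and 26.4% lower of all names. In 263 names (38.1%) all 3 embryos lay above both neural libraries, and in 252 (36.5%) below both. Scaling to total reads in place of TMM moved the median log2 fold change to 0.99 and the split to 245 higher and 130 lower, so changes hold relative to this shift. Fits without brain or without spinal cord, here and below, leave 1 neural library, so their spread is only that among the embryos. The count of 357 was 200 without brain and 221 without spinal cord, it was 144 when the other 10 libraries also set the spread, and 164 of the 357 passed whichever of the 5 libraries was left out.

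**Figure D1:**
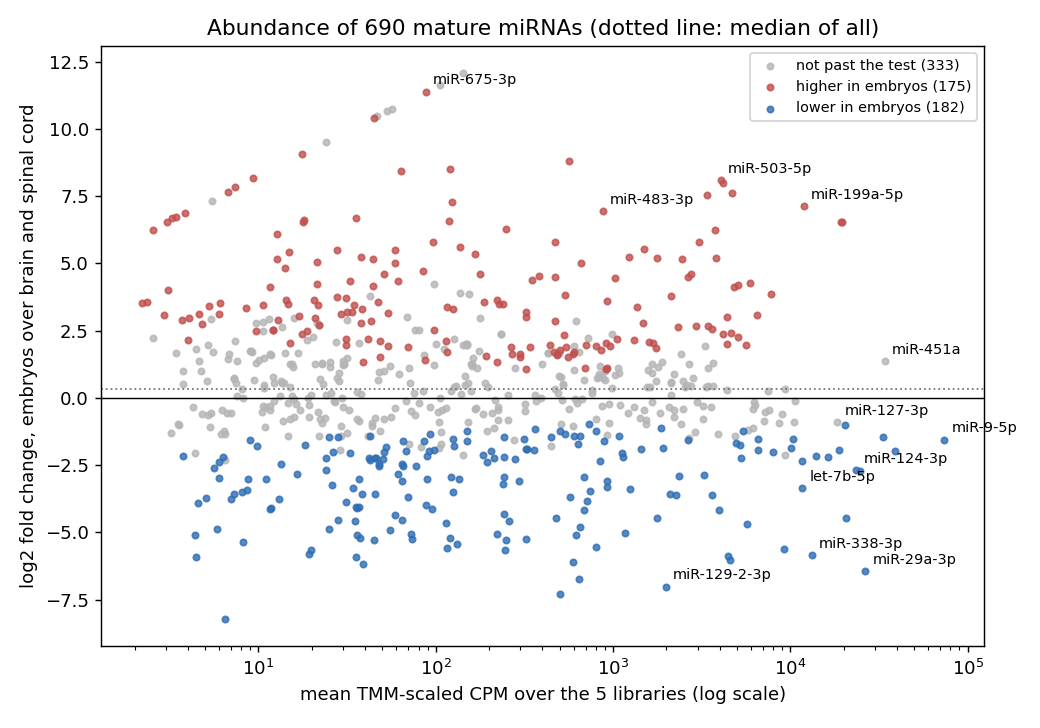
Log2 fold change of embryos over brain and spinal cord (vertical axis) against the mean level over the 5 libraries in TMM-scaled CPM (horizontal axis, log scale) for 690 mature miRNAs, 1 point each. The 175 names higher in embryos are red, the 182 lower are blue, the 333 others grey, and the dotted line is the median of all, 0.33; names with no read in brain and spinal cord form the upper left edge, where the fitted fold change is no measure of size.

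The miRNAs of the imprinted fetal growth loci were present in every embryo and nearly absent from brain and spinal cord. miR-483-3p, made from Igf2, stood at 1319, 1259 and 1770.4 CPM in the 11-, 15- and 17-day embryos, against 12.2 and 11.1 CPM in brain and spinal cord, a log2 fold change of 6.95 ± 0.47 (SE, adjusted p = 0.000573). The 3 embryos lay within 1.5 times of each other and more than 100-fold above both neural libraries. miR-675-3p, cut from the noncoding RNA H19, had 138, 138 and 164 CPM in the embryos, against no read in brain or spinal cord, so that it was at least 195-fold higher when set against 3 reads over both neural libraries. Its other strand, miR-675-5p, was at least 96.8-fold higher on the same ground. All 4 strands of both loci passed (adjusted p 0.000573 to 0.000924) with a median log2 fold change of 8.68, or 6.77 with those at 0 reads set at their bound, against 0.33 over all names, and all passed whichever library was left out.

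The miR-322 and miR-503 cluster of chromosome X, whose members are known to restrain cell cycle genes, was higher in embryos in 12 of 12 strands, with a median log2 fold change of 5.52 and a range of 4.50 to 8.11. miR-503-5p had 5494, 7752 and 6906 CPM in the embryos, against 31.6 and 16.9 CPM in brain and spinal cord (8.11 ± 0.59, adjusted p = 0.000573). Its neighbour miR-322-5p had 4494, 3906 and 4419.6 CPM in the embryos, against 197 and 180.5 CPM in brain and spinal cord (4.50 ± 0.39). Both were nearly level over the 3 stages and did not overlap between the groups. Over a whole seed family the picture depended on the other members. The seed AGCAGCG of miR-503-5p belonged to no other name counted and was higher with it (8.20 ± 0.65). The seed AGCAGCA of miR-322-5p is also that of miR-15 and miR-16, and the sum over its 6 names was 28831, 23496 and 21570.3 CPM in the embryos, against 22716 and 16355 CPM in brain and spinal cord (0.33 ± 0.39, adjusted p = 0.487), which did not pass.

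**Figure D2:**
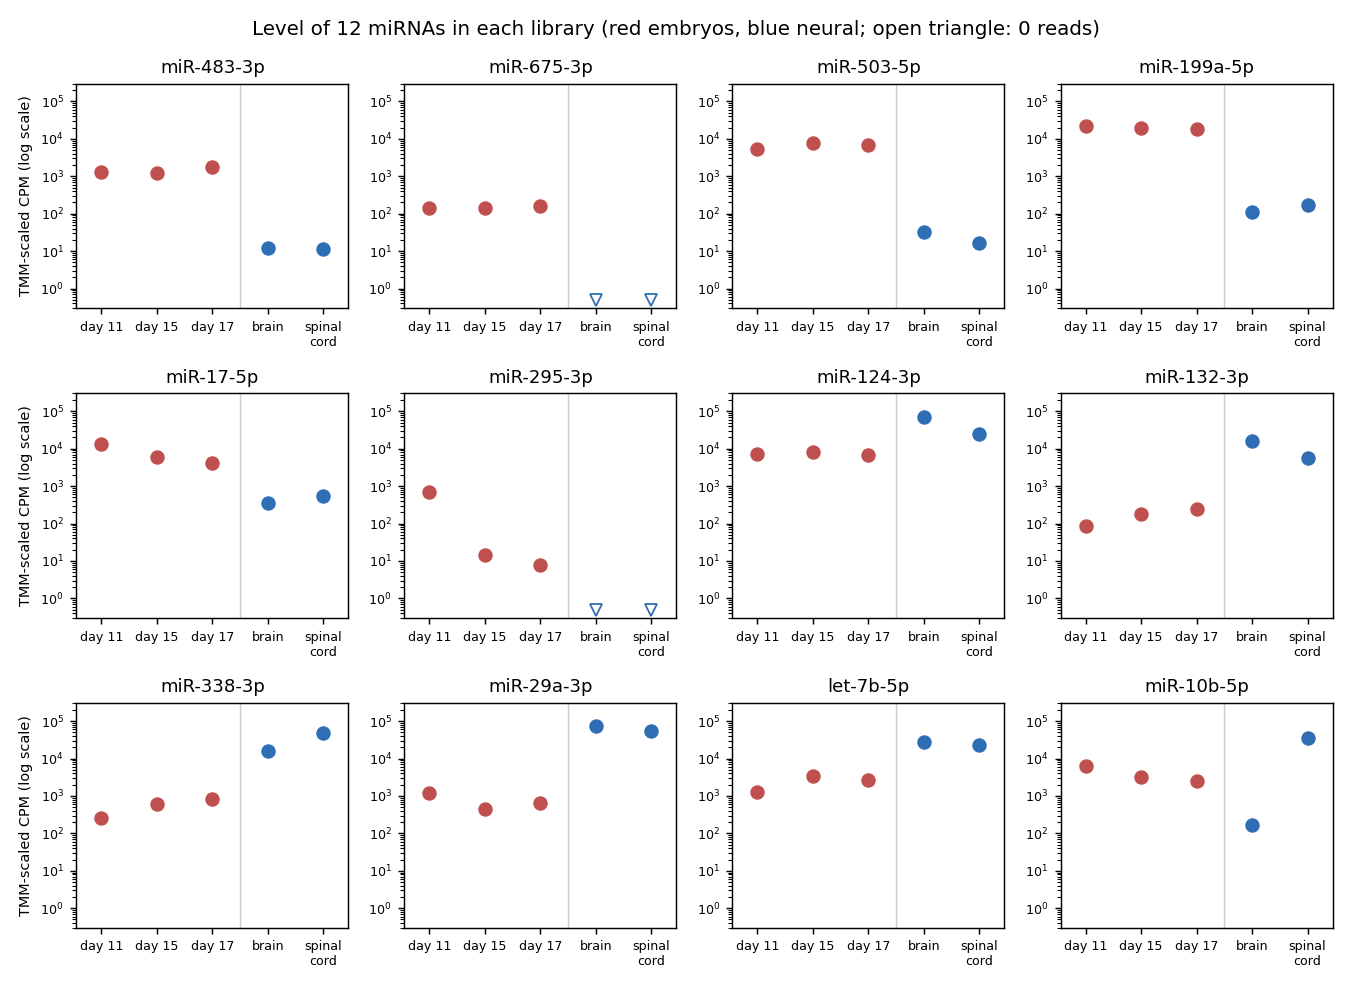
Level of 12 miRNAs in each library in TMM-scaled CPM on a log scale, with the 11-, 15- and 17-day embryos in red on the left of each panel and brain and spinal cord in blue on the right. Open triangles mark libraries with 0 reads; only miR-10b-5p has an embryo range that falls between brain and spinal cord.

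The miR-17-92 cluster and its paralogs, which promote proliferation and are targets of Myc, were higher in embryos in 15 of 18 strands and lower in 0. miR-17-5p had 13229.6, 5856 and 4217 CPM in the embryos, against 356 and 543 CPM in brain and spinal cord (4.11 ± 0.69, adjusted p = 0.00471), and miR-18a-5p had 7557, 4638 and 2827 CPM against 72.1 and 109.8 CPM (5.78 ± 0.66). Both were highest in the 11-day and lowest in the 17-day embryo, which still lay above both neural libraries. The whole list took 12.7%, 6.34% and 5.03% of reads in the embryos, against 0.377% in brain and 0.681% in spinal cord, and its median log2 fold change was 4.01. In the 9 other adult libraries the list took 0.833% to 6.27%, a range that holds the share of the 17-day embryo. This was not tested. The 3 strands that did not pass were miR-93-3p, miR-106a-5p and miR-20b-5p (adjusted p 0.061 to 0.072), of which all embryos also lay above both neural libraries. The count of 15 was 9 without brain.

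The early embryonic miRNAs of the miR-290 and miR-302 clusters, known from pluripotent stem cells, had most of their reads in the 11-day embryo. miR-295-3p had 687, 14.2 and 7.74 CPM in the embryos, against no read in brain or spinal cord, and miR-294-3p had 517, 6.1 and 3.23 CPM against no read. Over the 3 embryos they were at least 241-fold and 178-fold higher than 3 reads over both neural libraries, but they did not pass (adjusted p = 0.0575 and 0.0751). Of 15 listed strands 7 had enough reads to be tested, and 1 passed, miR-302b-3p (6.61 ± 2.20, adjusted p = 0.0459). That call was lost without brain (adjusted p = 0.158), without spinal cord (0.188) and with no filter on low counts (0.118), and without the 11-day or the 15-day embryo the strand had too few reads to be tested. The count was 5 of 7 in DESeq2, 2 of 7 with total-read scaling, 2 of 15 with no filter, 4 of 14 with the other 10 libraries in the fit, 0 of 14 without brain and without spinal cord, 1 of 1 without the 11-day embryo, 0 of 1 without the 15-day embryo and 2 of 6 without the 17-day embryo. The median log2 fold change of the 7 was 10.65, or 6.59 with strands at 0 reads set at their bound.

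Of the miRNAs of mesenchyme and cartilage, miR-199a-5p, miR-199a-3p and miR-199b-3p were among the 10 most abundant names in embryos. They were far lower in the neural libraries. miR-199a-5p, which with miR-214 is made from a transcript opposite Dnm3 in mesenchymal cells, had 21484, 19085 and 18709 CPM in the embryos, against 113 and 166 CPM in brain and spinal cord (7.15 ± 0.48, adjusted p = 0.000573). miR-214-5p had 1286, 810.1 and 717 CPM against 1.8 and 2.34 CPM (8.80 ± 0.60), a fold change of 445. In both the 11-day embryo was highest, and the stages differed by less than 2-fold. miR-199a-3p and miR-199b-3p share their sequence over at least 18 bases and had almost the same counts, so they are 1 uncertain value, 33435, 32986 and 29922 CPM in the embryos, against 214 and 484 CPM in brain and spinal cord (6.53 ± 0.59). All 10 listed strands were higher, with a median log2 fold change of 6.38, and the list took 14%, 12.7% and 12.4% of embryo reads, against 0.23% in brain and 0.386% in spinal cord. The 10 strands and these shares include both miR-199a-3p and miR-199b-3p. The shares are too high if the same reads were counted under both names, which is not known. The strands of miR-140 and miR-455, known from chondrocytes, differed less, as for miR-140-3p with 4289, 8985 and 10696 CPM against 1783 and 2350.4 CPM (1.95 ± 0.51, adjusted p = 0.0213). The count of 10 was 6 without brain, without spinal cord, and with the other 10 libraries in the fit. The miR-140-3p call was lost without brain (0.149), spinal cord (0.0977) or the 15-day embryo (0.0642), and with the other 10 libraries in the fit (0.0582).

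Neuronal miRNAs were lower in embryos in 18 of 23 strands and higher in 0, with a median log2 fold change of -3.50. miR-124-3p, abundant in neurons throughout the brain, had 7298, 8248 and 6614 CPM in the embryos, against 70988 and 24536 CPM in brain and spinal cord (-2.69 ± 0.50, adjusted p = 0.00681). The embryos were close to each other, and brain was highest. With the other 10 libraries in the fit this call was lost (0.196). miR-128-3p, which damps neuronal excitability, had 1025, 2339 and 3175 CPM against 77948 and 18852 CPM (-4.47 ± 0.78, adjusted p = 0.0053). Here the level was higher at each later stage, and the 17-day embryo was still below spinal cord. miR-132-3p, which neuronal activity induces through CREB, had 84.6, 180.2 and 244 CPM against 16433 and 5778 CPM (-6.03 ± 0.71), and its cluster partner miR-212-3p, with the same seed, 14.1, 20.7 and 26.4 CPM against 1182 and 375 CPM (-5.24 ± 0.63). The lowest of the list in embryos relative to the neural libraries were miR-129-1-3p (3.13, 7.32 and 12.9 CPM, against 1729.7 and 752 CPM) and miR-129-2-3p (26.6, 36.2 and 51 CPM, against 6027 and 3783 CPM), which were 156-fold and 129-fold higher in the neural libraries.

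miR-9-5p, a miRNA of neural progenitors as well as neurons, stood out by its level in embryos, 49703, 51821 and 23934 CPM against 149655 and 94283 CPM in brain and spinal cord, and it led all names in the 11- and 15-day embryos. The groups did not overlap, and the difference passed (-1.54 ± 0.46, adjusted p = 0.0317). The call was lost with scaling to total reads (0.153), without brain (0.178), spinal cord (0.0557), the 15-day embryo (0.0512) or the 17-day embryo (0.0596), and with the other 10 libraries in the fit (0.326). Of the 5 neuronal strands that did not pass, miR-153-3p (1069, 1435 and 826 CPM, against 3053 and 677 CPM) and miR-488-3p overlapped between the groups, and miR-218-5p, miR-708-5p and miR-135a-5p did not. The list as a whole took 9.64%, 9.38% and 5.28% of embryo reads, against 27.3% in brain and 16.3% in spinal cord. The count of 18 was 9 with the other 10 libraries in the fit. In total RNA of mixed tissue, fewer cells of a type and less of a miRNA per cell cannot be told apart.

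The oligodendrocyte miRNAs miR-338 and miR-219a, which promote the maturation of these myelin-forming cells, were lower in embryos in 4 of 4 strands. Their log2 fold changes ran from -6.11 for miR-338-5p to only -1.43 for miR-219a-5p. miR-338-3p had 264, 596 and 827 CPM in the embryos, against 15488 and 48869.8 CPM in brain and spinal cord (-5.84 ± 0.76, adjusted p = 0.00201). The level was higher at each later stage and, unlike that of the neuronal names above, higher in spinal cord than in brain. miR-219a-2-3p ran the other way over the stages, with 474, 59.8 and 25.5 CPM against 1610.2 and 6695 CPM (-4.48 ± 1.35, adjusted p = 0.0333). Its call was lost with total-read scaling (0.059), with no filter (0.163), with the other 10 libraries in the fit (0.115), and without brain (0.0627), spinal cord (0.146), the 15-day embryo (0.0884) or the 17-day embryo (0.0513), and the count of 4 was 2 to 3 in all of these fits.

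The miR-29 family, which targets collagens and DNA methyltransferases and accumulates in postnatal brain, was the list with the lowest median, -5.59, and 7 of 7 strands were lower in embryos. miR-29a-3p had 1184, 436 and 632 CPM in the embryos, against 75983 and 53750.5 CPM in brain and spinal cord (-6.43 ± 0.58, adjusted p = 0.000783), a level 86.5-fold higher in the neural libraries. miR-29b-3p had 189.6, 162 and 204 CPM against 13689 and 8036 CPM, and miR-29c-3p 494, 387 and 487 CPM against 25447 and 19089 CPM. The family took 0.244%, 0.117% and 0.161% of embryo reads, against 8.19% in brain and 6.78% in spinal cord. In the 9 other adult libraries it took 2.37% to 7.61%, a range that holds the share of spinal cord, as a description without a test. All 7 passed whichever library was left out and under each scaling, filter and tool tried. Summed over the shared seed, the level was 2286, 1115 and 1440.2 CPM against 128351 and 80013 CPM (-6.01 ± 0.53, adjusted p = 0.000228).

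The let-7 family, which closes developmental programs and whose maturation Lin28 blocks in early cells, was lower in embryos in 6 of 9 tested 5p strands and 8 of 12 3p strands, with medians of -1.99 and -1.91. The 5p list took 3.52%, 7.79% and 4.3% of embryo reads, against 14.8% in brain and 14.4% in spinal cord. In the 9 other adult libraries it took 8.06% to 15.71%, a range that holds both neural shares, as a description without a test. The members did not move alike. let-7b-5p had 1297, 3508 and 2722 CPM in the embryos, against 28134 and 22708 CPM in brain and spinal cord (-3.34 ± 0.50, adjusted p = 0.00325), and let-7c-5p 5592, 11978 and 5650.1 CPM against 53203 and 47803 CPM (-2.71 ± 0.46, adjusted p = 0.00483). let-7i-5p, with the same seed, had 3108, 11449.6 and 7753 CPM against 13131 and 9435 CPM and overlapped between the groups (-0.60 ± 0.57, adjusted p = 0.396). In each of the 9 the 11- or the 17-day embryo was lowest. The call on let-7a-5p (-1.94 ± 0.47, adjusted p = 0.017) was lost with total-read scaling (0.0512), without brain (0.101) and without spinal cord (0.0601). The 5p count was 2 without brain and 3 without spinal cord, and the 3p count was 1 without brain, 2 without spinal cord, 4 without the 15-day embryo, 2 with total-read scaling and 3 with the other 10 libraries in the fit. The strands of let-7a-1 and let-7c-2 on the 3p arm share at least 18 bases and are 1 uncertain value, and let-7a-5p and let-7c-5p share as many.

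miR-125, the mammalian lin-4, and miR-99 and miR-100, which lie in clusters with let-7, were lower in 2 and higher in 1 of 11 strands. Of all names 26.4% were lower and 25.4% higher. miR-125a-5p had 5676, 4158 and 4871 CPM in the embryos, against 20949.5 and 14697 CPM in brain and spinal cord (-1.86 ± 0.35, adjusted p = 0.00679). miR-99b-5p, from the same cluster, had 5261, 2844 and 2989.9 CPM against 2866 and 2775 CPM and overlapped between the groups (0.39 ± 0.41, adjusted p = 0.437). miR-125b-5p was also lower (-1.46 ± 0.31, adjusted p = 0.0108), except with total-read scaling (0.0812), without spinal cord (0.0632) and with the other 10 libraries in the fit (0.143). In that last fit the call on miR-125a-5p was lost too (0.0749). The higher strand, miR-99a-3p (1.42 ± 0.48, adjusted p = 0.0471), passed in neither fit that lacked a neural library (0.141 without brain, 0.238 without spinal cord), nor without the 15-day (0.154) or the 17-day embryo (0.108), with no filter (0.0718) or with the other 10 libraries (0.499). The list median was -0.62 and turned to 0.07 with total-read scaling.

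Outside the lists, miR-26a-5p, which lies in introns of Ctdsp genes, was among the 10 most abundant names of both groups, with 14737, 18729 and 19914 CPM in the embryos, against 88925 and 52420.5 CPM in brain and spinal cord (-1.99 ± 0.38, adjusted p = 0.00705). miR-30c-5p had 6086, 6400.1 and 7471 CPM against 31818 and 29525 CPM (-2.20 ± 0.31, adjusted p = 0.00276), and miR-664-3p 5.75, 11 and 18.1 CPM against 531 and 658 CPM (-5.66 ± 0.57, adjusted p = 0.000924). All embryos lay below both neural libraries in the 3 names. The call on miR-26a-5p was lost without brain (0.062) and that on miR-30c-5p with the other 10 libraries in the fit (0.0582).

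The Dlk1-Dio3 region of chromosome 12, an imprinted domain with a large miRNA cluster that is active in embryo, placenta and brain, had tested strands that were higher and others that were lower in embryos. It was taken as 200000 bases before Meg3 to 20000 bases after Mirg (GRCm38), which held 52 hairpins with 100 tested strands. Of these 31 (31.0%) were higher in embryos, against 25.4% of all names, and 10 (10.0%) lower, against 26.4%, and the median log2 fold change was 0.52, against 0.33. The listed strands near Meg3 and Rtl1 took 2.96%, 4.51% and 6.59% of embryo reads, against 3.75% in brain and 4.06% in spinal cord. Those of the list named after Mirg, from miR-379 to miR-410, took 5.33%, 7.56% and 7.47%, against 2.87% and 2.86%. This list also holds hairpins that lie before the annotated start of Mirg, such as Mir376b. The most abundant strand of the region, miR-127-3p, which targets Rtl1, had 7116, 12524 and 21499 CPM against 25754 and 25074 CPM and did not pass (-0.89 ± 0.50, adjusted p = 0.177). It was higher at each later stage, and the 17-day embryo came near both neural libraries.

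miR-494-3p was higher in embryos, with 610.1, 596 and 492 CPM against 32.5 and 21.6 CPM in brain and spinal cord (4.38 ± 0.42, adjusted p = 0.000901), and so was miR-493-3p, with 22.5, 37 and 45.5 CPM against 1.35 and 0.584 CPM (5.06 ± 0.71, adjusted p = 0.00267). miR-770-5p, at the other end of the scale, had 73.1, 70.8 and 76.4 CPM against 728 and 518 CPM (-3.08 ± 0.34, adjusted p = 0.00107). In these 3 the groups lay well apart and the stages close together. miR-434-3p was lower in embryos (-1.53 ± 0.41, adjusted p = 0.0236), while its other strand miR-434-5p had 894, 1603 and 2254 CPM against 1759 and 1768 CPM and overlapped. The call on miR-434-3p was lost with total-read scaling (0.102), without brain (0.105), spinal cord (0.0975) or the 15-day embryo (0.0631), and with the other 10 libraries in the fit (0.266), and that on miR-770-5p in the last of these (0.134). In the lists 9 of 25 strands near Meg3 and Rtl1 were higher and 4 lower, and 11 of 39 in the list named after Mirg were higher and 3 lower. With total-read scaling these counts were 12 and 2, and 20 and 1. Without spinal cord they were 3 and 3, and 3 and 1, without brain 6 and 2, and 6 and 1, without the 15-day embryo 7 and 2, and 6 and 1, and with the other 10 libraries in the fit 1 and 0, and 2 and 0. Without the 11-day embryo the Mirg counts were 19 and 3, and without the 17-day embryo 7 and 3.

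**Figure D3:**
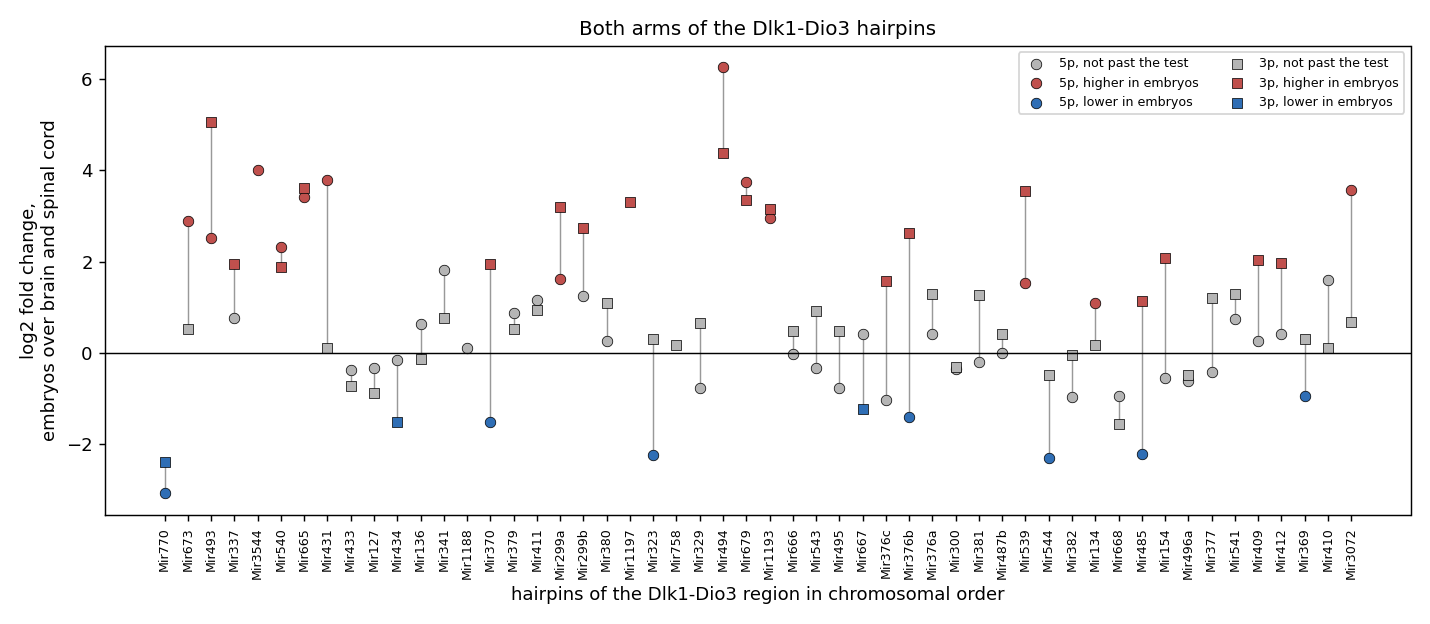
Log2 fold change of embryos over brain and spinal cord of the tested 5p (circles) and 3p (squares) strands of the Dlk1-Dio3 hairpins, in chromosomal order from left to right, with a grey line joining the strands of 1 hairpin. Red is higher in embryos, blue lower and grey not past the test; for Mir376b, Mir370 and Mir485 the 3p strand is red and the 5p strand blue, and for Mir431 only the 5p strand passed.

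The cluster in introns of Htr2c, a serotonin receptor gene of neurons on chromosome X, was lower in embryos in 7 of 8 tested strands, with a median log2 fold change of -4.50. The values ranged from -5.65 for miR-764-3p to -2.05 for miR-448-3p. miR-764-3p had 0.522, 0.813 and 1.29 CPM in the embryos, against 41.9 and 54.9 CPM in brain and spinal cord (-5.65 ± 0.56, adjusted p = 0.000901), and miR-448-5p had 1.04, 3.25 and 1.61 CPM against 36.5 and 82.4 CPM (-4.86 ± 0.68, adjusted p = 0.00261). The embryo levels rest on few reads, and in both strands all lay far below either neural library. miR-1298-5p was the exception (36, 81.7 and 65.8 CPM, against 440.0 and 86.4 CPM; adjusted p = 0.0518), with spinal cord close to the 15-day embryo. The count of 7 was 3 with the other 10 libraries in the fit.

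Brain and spinal cord parted in the miRNAs of the Hox clusters, and the embryos lay above brain. miR-10b-5p, from the HoxD cluster, had 6190.4, 3278 and 2564 CPM in the embryos, against 165 and 34456 CPM in brain and spinal cord. miR-196b-5p had 2249, 1265 and 855 CPM against 2.25 and 561 CPM, and miR-615-3p 1436, 483 and 474 CPM against 6.31 and 1946 CPM. In each the embryos were above brain by more than 15-fold and highest at 11 days, and only miR-196b-5p was also above spinal cord in all 3 embryos. None of the 8 strands passed in edgeR, in which none had an unadjusted p under 0.05, or in DESeq2, and the list median was 0.14. That median was 5.72 without spinal cord and -0.88 without brain, in fits that each leave 1 neural library.

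The miR-200 family, which keeps epithelial identity, parted the neural tissues in the other direction. miR-200a-3p had 1031, 2051 and 2848 CPM in the embryos, against 1910.0 and 17.5 CPM in brain and spinal cord, and miR-429-3p 812, 1302 and 1256 CPM against 1099 and 10.5 CPM. Brain lay within the range of the embryos and spinal cord far below it, and neither passed (adjusted p = 0.567 and 0.562). The median log2 fold change of the 7 epithelial strands was 2.22, and 6.49 without brain, where spinal cord is the only neural library. With both neural libraries 2 passed, namely miR-205-5p, of stratified epithelium, with 4389.8, 7031 and 11907 CPM against 53.2 and 25.7 CPM (7.62 ± 0.80, adjusted p = 0.000928), and the skin miRNA miR-203-3p, with 762, 6030.4 and 11815 CPM against 171 and 168 CPM (5.19 ± 1.24, adjusted p = 0.0161). Both were higher at each later stage. The call on miR-203-3p was lost without brain (0.113) or spinal cord (0.104), with no filter (0.0664) and with the other 10 libraries in the fit (0.0655), and that on miR-205-5p in the last (0.157).

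Markers of organs outside the nervous system were in part higher in embryos, list by list as given here beside the 25.4% higher and 26.4% lower of all names, and the part of tissue makeup in the results above was not tested. The hepatocyte miRNA miR-122-5p had 835, 9604 and 10238 CPM in the embryos, against 21.6 and 32.7 CPM in brain and spinal cord (7.99 ± 1.40, adjusted p = 0.00534). The heart muscle miRNA miR-208a-3p had 68.4, 120.4 and 129 CPM in the embryos, against 0.451 and 0 CPM in brain and spinal cord (adjusted p = 0.00112), and its relative miR-208b-3p had 144, 254 and 204 CPM against 0.902 and 0 CPM (adjusted p = 0.00111). miR-122-5p was more than 10-fold higher at 15 and 17 days than at 11 days, and the heart miRNAs were at 0 reads in spinal cord. Of the muscle list 5 of 7 were higher, but miR-1a-3p had 1243, 6908 and 4934 CPM against 525 and 3480.0 CPM and overlapped through spinal cord. The erythroid miR-451a overlapped too, with 24362, 47086 and 64489.5 CPM against 9184 and 25706 CPM (adjusted p = 0.108), and 2 of 5 erythroid strands were higher. In the leukocyte list 2 of 5 were higher and 1 lower, the lymphocyte miRNA miR-150-5p, with 86.2, 56.1 and 114 CPM against 2665 and 2882 CPM (-5.02 ± 0.44, adjusted p = 0.000783). Of the remaining marker lists, 1 of 4 smooth muscle strands was higher, 1 of 3 of gut and kidney epithelium was higher, 0 of 2 endothelial strands passed, and 1 of 6 of retina, pigment epithelium and lens was lower. Of the endothelial strands, miR-126a-3p stood at 6086, 6364 and 7469.5 CPM in the embryos, against 7681 and 10399 CPM in brain and spinal cord, with a list median of -0.38 that turned to 0.26 with total-read scaling. The lower strand of the last list was miR-204-5p, of pigment epithelium and choroid plexus, with 290.4, 439.6 and 435 CPM against 4975 and 4321 CPM (-3.58 ± 0.37, adjusted p = 0.000924). The higher smooth muscle strand, miR-143-5p (adjusted p = 0.0285), did not pass without brain (0.12), spinal cord (0.166), the 15-day (0.0671) or the 17-day embryo (0.0603), or with the other 10 libraries in the fit (0.261), so that 0 of 4 were then higher. That of gut and kidney, miR-192-5p (adjusted p = 0.0285), did not pass without brain (0.164), spinal cord (0.144) or the 15-day embryo (0.0628), or with the other 10 libraries (0.653), which left 0 of 3. With the other 10 libraries in the fit the calls on miR-204-5p (0.096), miR-122-5p (0.274), miR-208a-3p (0.274) and miR-208b-3p (0.148) were lost, and without brain that on miR-122-5p (0.0616). The counts of higher muscle, erythroid and leukocyte strands were 2, 0 and 0 without brain, without spinal cord and without the 15-day embryo, 3, 1 and 0 without the 17-day embryo, and 0 each with the other 10 libraries in the fit.

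**Figure D4:**
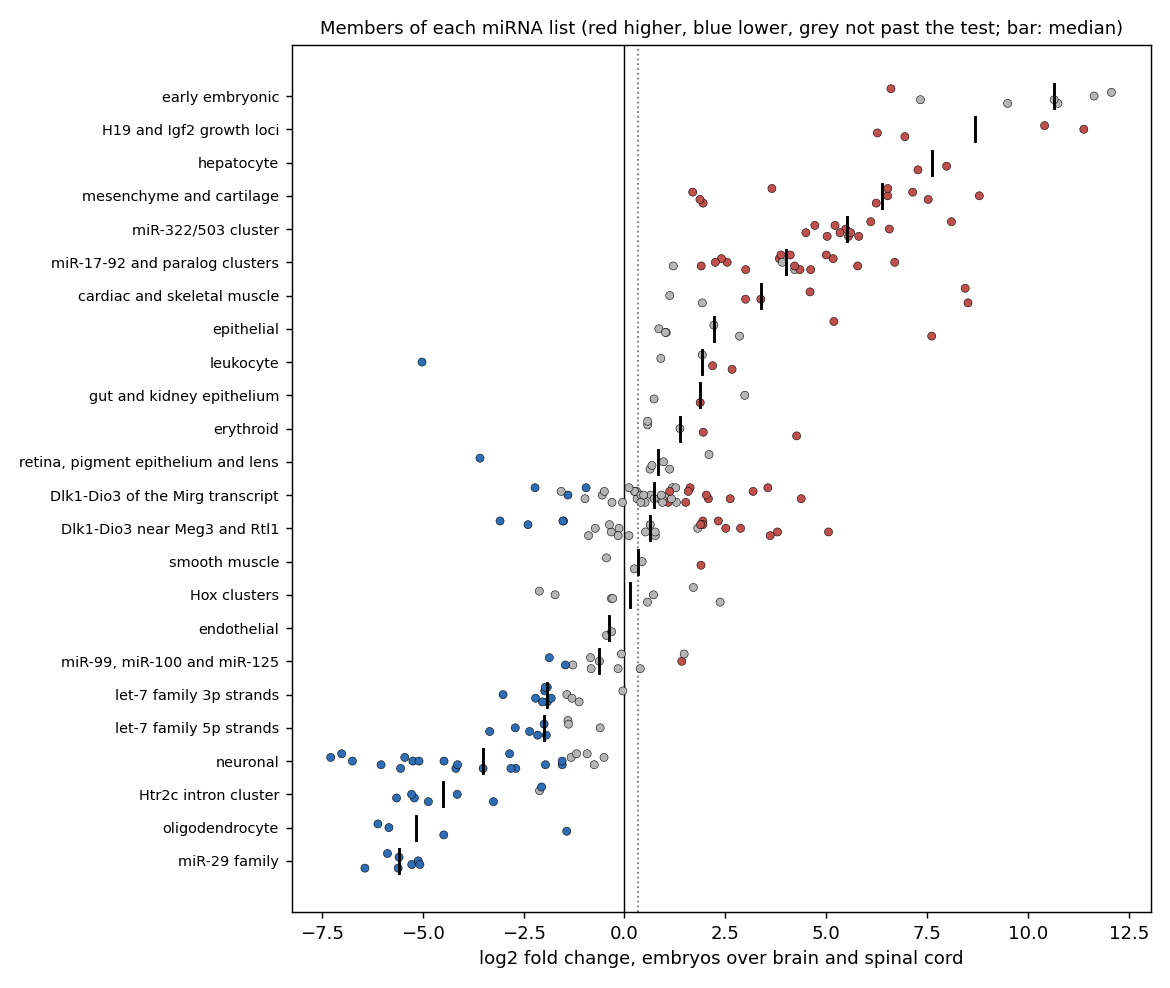
Log2 fold change of embryos over brain and spinal cord for the tested members of each miRNA list, 1 point each, with the list's median as a black bar and the median of all 690 names as a dotted line. Red members were higher in embryos, blue lower and grey did not pass; lists run from early embryonic at the top to the miR-29 family at the bottom, and the fitted values of names with no neural read, at the right of the top lists, are no measure of size.

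Summed over names with the same seed, 137 of 476 families (28.8%) were higher in embryos and 134 (28.2%) lower, together 56.9%. All 3 embryos lay above both neural libraries in 178 (37.4%) and below both in 172 (36.1%). The sequences behind this covered 88.9% to 91.7% of the reads of a library, and the 232 names without a matched sequence, miR-124-3p among them, are in no family. Of the families so made, the most abundant that was lower was GAGGUAG, that of let-7, with 33866, 76607 and 39595 CPM in the embryos, against 235280.0 and 173212 CPM in brain and spinal cord (-2.03 ± 0.48, adjusted p = 0.0113). It was followed by CUUUGGU of miR-9-5p, UCAAGUA of miR-26, CCCUGAG of miR-125 and miR-351, and AGCACCA of miR-29. In CCCUGAG the members moved in different directions, since miR-351-5p, of the miR-322 and miR-503 cluster, was higher in embryos (2147, 2665 and 3915 CPM, against 78.9 and 77.1 CPM) and the sum lower (-1.27 ± 0.35). The most abundant of them that was higher was CAGUAGU of miR-199-3p (6.69 ± 0.60), followed by AAAGUGC of miR-17, miR-20, miR-93 and miR-106, with 57473, 27289 and 17746 CPM against 3062 and 4001 CPM (3.27 ± 0.65, adjusted p = 0.00553). Next came CCAGUGU of miR-199a-5p, AGUGCAA of miR-130 and miR-301 (3.23 ± 0.50) and AUUGCAC of miR-25 and miR-92 (1.99 ± 0.55). CAGUAGU adds miR-199a-3p and miR-199b-3p, which had almost the same counts. Its level and its first rank are therefore uncertain, since the same reads may have been counted under both names. Without brain the calls on CUUUGGU (0.153), UCAAGUA (0.062) and AUUGCAC (0.143) were lost, without spinal cord those on CCCUGAG (0.0576) and AUUGCAC (0.0583), without the 15-day embryo those on CUUUGGU (0.0691) and AUUGCAC (0.0606), and without the 17-day embryo that on CUUUGGU (0.0637). Total-read scaling ended those on CUUUGGU (0.142) and CCCUGAG (0.11). No filter ended both (0.0675 and 0.102), and the fit with the other 10 libraries those on CUUUGGU (0.434), CCCUGAG (0.239) and UCAAGUA (0.0546). The count of 271 families was 179 without brain and 108 with the other 10 libraries in the fit.

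Arm usage, the question that the title of the series raises, differed between the groups for 86 of 261 hairpins (33%) by edgeR, with the 5p share higher in embryos in 36 (13.8%) and lower in 50 (19.2%). All 3 embryos lay above both neural libraries in 82 hairpins (31.4%) and below both in 81 (31%). In 56 of the 86 the minor arm held more than 5% of reads in either group. Of the 86, 53 passed both in limma on log2 ratios and with at least 100 reads per hairpin. A hairpin below that minimum was not tested there and is not among the 53. By shares alone, all 3 embryos lay on the other side of 50% from both neural libraries in 9 hairpins, with 3p leading in the embryos and 5p in brain and spinal cord in 7 (Mir376b, Mir296, Mir154, Mir329, Mir423, Mir337 and Mir1264) and the reverse in 2 (Mir490 and Mir297c). In the first 5 of the 7 the exact 95% interval for counting error also excluded 50% in every library, and in the other 4 it did not. The 3p strands of miR-297a, miR-297b and miR-297c had close log2 fold changes, at 1.28, 1.26 and 1.22. How any reads they share were counted is not given, so the Mir297c share is uncertain. For Mir337 the shares were 31.2, 30 and 31.6% in the embryos, against 50.1 and 50.7% in brain and spinal cord (-1.18 ± 0.21, adjusted p = 0.00214), and the call was lost with the other 10 libraries in the fit (0.0601). The count of 86 was 55 without brain, 53 without spinal cord and 57 without the 15-day embryo, and 36 passed whichever library was left out.

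Mir376b, of the Dlk1-Dio3 region, had a 5p share of 6.89, 8.05 and 13% in the 11-, 15- and 17-day embryos, against 62.1 and 64% in brain and spinal cord, a difference in log2 odds of -4.10 ± 0.33 (SE, adjusted p = 5.93e-06). The exact 95% interval of the highest embryo share was 12.4 to 13.6% and that of the lowest neural share 60.6 to 63.5%, both covering counting error only. Its strands moved apart in level, since miR-376b-3p was higher in embryos (2669.7, 4543 and 3337 CPM, against 715 and 427 CPM; log2 fold change 2.62 ± 0.46) and miR-376b-5p lower (197, 398 and 499.9 CPM, against 1170.2 and 758 CPM; -1.40 ± 0.48, adjusted p = 0.0492). The 5p strand shares at least 18 bases with miR-376c-5p, so its count is uncertain. The call on the level of miR-376b-5p was lost with total-read scaling (0.193), without brain (0.254), spinal cord (0.0924) or the 15-day embryo (0.104), with DESeq2's size factors (0.0585), and with the other 10 libraries in the fit for both strands (0.185 and 0.106), while that on the share was not.

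Mir296, outside that region, had a 5p share of 27.5, 32 and 35.9% in the embryos, against 79.7 and 75.2% in brain and spinal cord (-2.89 ± 0.26, adjusted p = 1.58e-05). Both strands were higher in embryos, but the 3p strand by more, with 2229.9, 1303 and 1429.8 CPM against 73.5 and 77.1 CPM (4.46 ± 0.46) and the 5p strand with 845, 615 and 801 CPM against 288 and 234 CPM (1.53 ± 0.34). Mir154 had 25.2, 26.1 and 40.3% in the embryos, against 74 and 72.9% (-2.68 ± 0.33, adjusted p = 0.000205), where miR-154-3p was higher in embryos (2.08 ± 0.39) and miR-154-5p overlapped between the groups (-0.55 ± 0.44, adjusted p = 0.326). The strand calls were lost for miR-154-3p without spinal cord (0.0594) and with the other 10 libraries (0.108), for miR-296-3p with those libraries (0.0894), and for miR-296-5p with them (0.605), without brain (0.0637) or without spinal cord (0.094). In both hairpins the share was highest in the 17-day embryo, which still lay below brain and spinal cord by more than 30 points. The differences of the other hairpins whose intervals excluded 50% were smaller, at 43.1, 41 and 45.8% in the embryos, against 66.5 and 68.5% for Mir329 (-1.45 ± 0.22, adjusted p = 0.000798), and at 41, 40.7 and 39.5%, against 54.1 and 56.4% for Mir423 (-0.87 ± 0.23, adjusted p = 0.0153). The call on Mir423 was lost in limma on log2 ratios (0.0553), with the other 10 libraries in the fit (0.0715), and without spinal cord (0.103) or the 15-day embryo (0.0601).

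**Figure D5:**
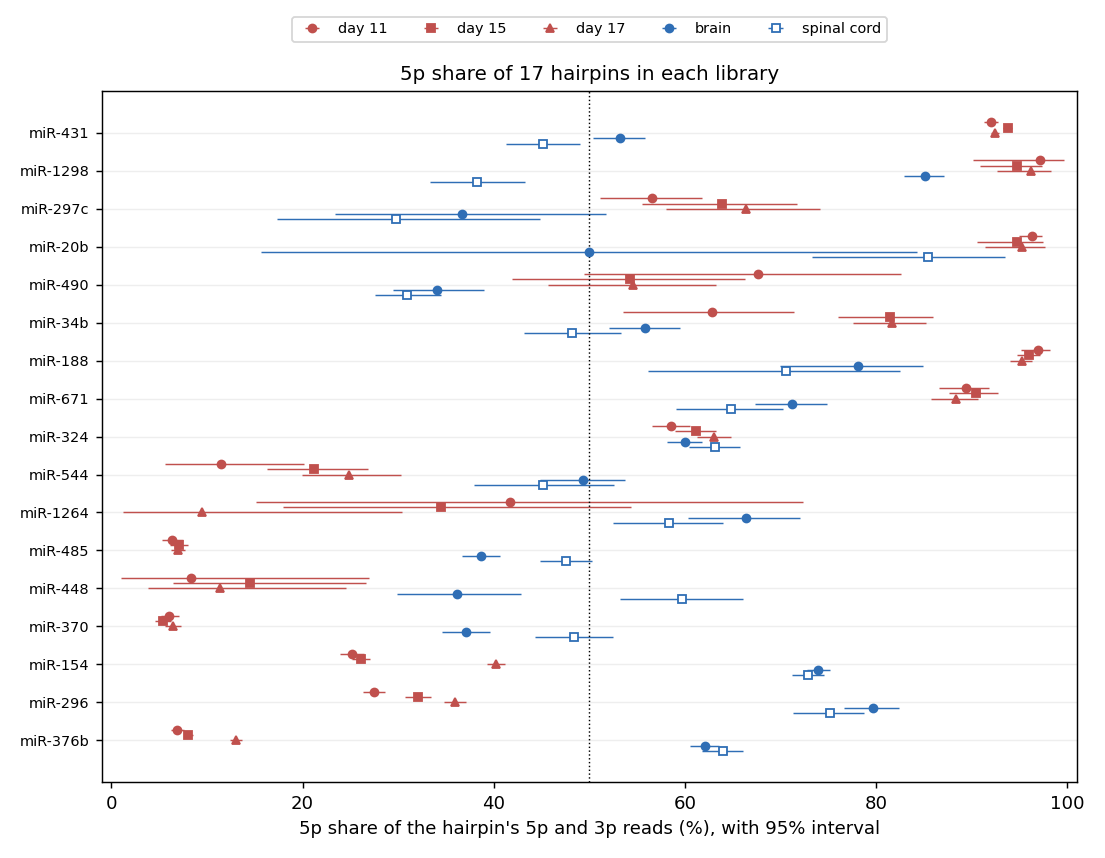
5p share of 17 hairpins in each library, as a percent of the hairpin's 5p and 3p reads, with exact 95% intervals for counting error. Embryos are red (day 11 circle, day 15 square, day 17 triangle) and brain and spinal cord blue (filled circle and open square); the dotted line marks equal use, with the embryos left of it and both neural libraries right of it for miR-376b, miR-296, miR-154 and miR-1264 and the reverse for miR-297c and miR-490, and the 5 shares of miR-324 lie between 58.6% and 63.1%.

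Within the Dlk1-Dio3 region 21 of 48 hairpins (43.8%) had a lower 5p share in embryos and 6 (12.5%) a higher one, against 29 (13.6%) lower and 30 (14.1%) higher of the 213 hairpins outside it, which is given as a description. Mir370 had 6.04, 5.37 and 6.44% in the embryos, against 37.1 and 48.4% in brain and spinal cord (-3.54 ± 0.29, adjusted p = 5.93e-06), and Mir485 had 6.32, 7.04 and 6.92% against 38.7 and 47.6% (-3.38 ± 0.25, adjusted p = 5.66e-06). In both, as in Mir376b, the 3p strand was higher in embryos and the 5p strand lower, and these were the only 3 of the 86 hairpins whose strands passed in different directions. The strand calls held less well than the shares. Without spinal cord those on miR-370-3p (0.0739) and miR-485-3p (0.252) were lost, without brain those on miR-370-5p (0.135) and miR-485-3p (0.0855), and without the 15-day embryo those on miR-370-3p (0.0578), miR-370-5p (0.0726) and miR-485-3p (0.133). miR-485-3p also lost its call without the 17-day embryo (0.112) and with no filter (0.0983), miR-370-5p with total-read scaling (0.105), and all 4 strands with the other 10 libraries in the fit (adjusted p 0.178 to 0.562). Mir431, whose RNA lies opposite Rtl1, went the other way, with 92, 93.8 and 92.4% in the embryos, against 53.2 and 45.2% in brain and spinal cord (3.73 ± 0.27, adjusted p = 5.66e-06). miR-431-5p was higher in embryos (2466, 3398 and 4318 CPM, against 317 and 172 CPM; 3.79 ± 0.52), and miR-431-3p overlapped (213, 225 and 353 CPM, against 279 and 209 CPM; 0.11 ± 0.39, adjusted p = 0.813). The call on miR-431-5p was lost with the other 10 libraries in the fit (0.0894). The share of Mir431 passed under each alternative tried, as did those of Mir376b, Mir296, Mir154, Mir370, Mir485 and Mir329.

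Further shares that were lower in embryos rest on fewer reads. Mir448, in an intron of Htr2c, had 8.33, 14.5 and 11.4% in the embryos from 24, 55 and 44 reads, against 36.2 and 59.7% in brain and spinal cord from 224 and 236 reads (-2.73 ± 0.59, adjusted p = 0.00573). Mir1264, of the same cluster, had 41.7, 34.5 and 9.52% from 12, 29 and 21 reads, against 66.4 and 58.3% (-2.12 ± 0.62, adjusted p = 0.0219), a call lost in limma (0.0879), without brain (0.0818) and without the 17-day embryo (0.0587). Mir544 had 11.5, 21.2 and 24.8% in the embryos, against 49.3 and 45.2% in brain and spinal cord (-1.86 ± 0.43, adjusted p = 0.00849). In these 3 hairpins the groups did not overlap, and for the Htr2c hairpins the embryo shares are imprecise.

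Shares that were higher in embryos included Mir188, with 97, 96.1 and 95.3% in the embryos, against 78.1 and 70.6% in brain and spinal cord (3.01 ± 0.43, adjusted p = 0.00069), and Mir671, with 89.4, 90.4 and 88.4% against 71.2 and 64.8% (1.98 ± 0.34, adjusted p = 0.00174). For Mir188 the 5p strand was higher in embryos (3.50 ± 0.52), and miR-188-3p overlapped between the groups. Mir1298, of the Htr2c cluster, had 97.2, 94.8 and 96.2% in the embryos, against 85.1 and 38.2% (3.56 ± 0.90, adjusted p = 0.0127), where brain and spinal cord differed from each other by more than brain from the embryos, and the call was lost without the 11-day (0.331) or the 17-day embryo (0.0827). Mir20b had 96.3, 94.7 and 95.2%, against 50 and 85.5% (2.58 ± 0.72, adjusted p = 0.0185), with 8 reads in brain, and did not pass without brain (0.0805). Mir490 (67.6, 54.3 and 54.5%, against 34.1 and 31%), Mir34b (62.8, 81.4 and 81.6%, against 55.8 and 48.2%) and Mir297c (56.5, 63.9 and 66.4%, against 36.7 and 29.8%) also passed (adjusted p = 0.0158, 0.0204 and 0.016), and did not without spinal cord (0.0866, 0.0986 and 0.11). Mir34b and Mir297c further lost their calls without the 15-day embryo (0.0856 and 0.0602), Mir297c without brain (0.0506), Mir34b without the 17-day embryo (0.0587) and in limma (0.0726), and Mir490 with the other 10 libraries in the fit (0.0722).

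For Mir324 no difference was detected. Its 5p share was 58.6, 61.2 and 63.1% in the embryos, against 60.0 and 63.1% in brain and spinal cord, and the groups overlapped. The difference in log2 odds was -0.04 ± 0.24 (SE, adjusted p = 0.919), and the difference of the mean shares -0.627 points.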

How the data were processed

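Small RNA reads per mature miRNA name were compared between 3 embryo libraries and the brain and spinal cord libraries, and the eye library entered only a fit of all 15 libraries. The values are raw read counts that the authors deposited, 1 file per library, and a name not listed was taken as 0. Per the submitters' processing notes, the tools behind them were bcl2fastq 1.8.4, cutadapt, BWA and bedtools, on mm10. Not given in the sources used here are the role and options of each tool, the miRNA annotation and how multi-mapping reads were counted, so names that share sequence are uncertain.

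Of 1558 names, 690 passed filterByExpr and were tested with edgeR 4.0.16 in R 4.3.3 (glmQLFit and glmQLFTest, robust, TMM, 3 residual degrees of freedom), with Benjamini-Hochberg adjustment over all names and a threshold of 0.05. The filter removed at most 0.211% of a library's reads. CPM are reads scaled to a common library total with TMM, and fold changes are embryos over brain and spinal cord. Standard errors are the size of the log2 fold change over the square root of its F statistic. A bound against 0 reads uses 3 counts over the group. Arm usage was tested in the same tool as an interaction of arm and group beside library terms. It covered 261 hairpins that had 20 or more reads in 4 or more libraries and 10 or more of each arm. Shares have exact Clopper-Pearson 95% intervals, which cover counting error only, since PCR reads carry no molecular identifiers. Seed families are sums over names with the same bases 2 to 8; 1326 names matched a RefSeq mature sequence. The scripts were tested on simulated data.

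Alternatives were DESeq2 1.42.0 and its size factors, total-read scaling, no filter, limma 3.58.1 on log2 arm ratios with a pseudocount of 0.5, at least 100 reads per hairpin, all 15 libraries in the fit, and leaving out each library. The names described were drawn from the markers of the comparison, the 10 largest called changes in each direction with a mean of at least 100 CPM in the higher group and groups apart, the 4 most abundant members of each list, the 10 most abundant in each group, the 8 largest called share differences in each direction with Mir324, and the 5 most abundant called seed families in each direction. Other names in the text were chosen after their values were seen. The comparison, its markers and the lists were chosen with earlier results of these data known, so list counts are descriptions and have no test of their own.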

Additional observations from a re-analysis of the deposited data

How the results depend on the processing

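The number of miRNAs called was 357, and 144 with all 15 libraries in the fit. It ranged from 200 to 399 over the fits that leave out 1 library, being 200 without brain and 221 without spinal cord. The 271 seed families called became 108 with all 15 libraries, and 179 to 287 on leaving out 1 library, with 179 without brain. The 86 hairpins called became 53 to 108 on leaving out 1 library, with 55 without brain, 57 without the 15-day embryo and 53 without spinal cord. Without brain and without spinal cord, the log2 fold change of miR-10a-5p was -1.33 and 4.41, the log2 fold change of miR-10b-5p was -3.13 and 4.51, and the log2 fold change of miR-615-3p was -1.33 and 6.87. Fewer samples enter the fits that leave out a library, and those without brain or spinal cord have 1 neural library and no spread within that group. In the fit of all libraries other tissues set the spread. Beyond this the cause was not tested. Over all settings and named results, 1081 values kept their direction and side of the threshold, 151 no longer passed, 20 newly passed and 3 reversed. Of the 357 miRNAs 285 passed under every scaling, filter and tool tried, and 104 under all alternatives, as did 31 of the 86 hairpins. No paired analysis was possible because the libraries of the groups are different stages and tissues, and the labels name no animal shared between them. Depth limits names of a few CPM, and a name at 0 reads in both neural libraries has only a lower bound.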

Other observations

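Some names with reads in 1 group had no read in the other, beside those described above, and they are named after their values were seen. miR-7047-3p had no read in the 3 embryos, against 63 reads in brain and spinal cord, and was at least 39.9-fold lower in embryos when set against 3 reads over the embryos. miR-875-5p had 99 reads and miR-452-5p 80 reads in the embryos, against no read in brain and spinal cord, and they were at least 17.4-fold and 14-fold higher. The lesser strands miR-205-3p and miR-133b-5p, of epithelium and muscle, had 227 and 133 reads in the embryos, against no read in brain and spinal cord.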
